A study of Drosophila melanogaster with 3 samples.

Results

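The genes described here are 9 ecdysone-dependent timing and late response genes of Drosophila melanogaster: Blimp-1, Kr-h1, vri, crol, Cyp18a1, ImpE1, ImpE2, ImpE3 and ImpL2. They were taken by name from a list drawn up with earlier results of these data known. All 9 were found among 13945 protein-coding genes on the main chromosome arms. The binding data are chromatin immunoprecipitation and sequencing (ChIP-seq) peaks of CG6808, a zinc finger protein that the current annotation names Zaf1, from whole prepupae. The animals were of the strain CG6808-GFP, with males and females pooled, and carried CG6808 with GFP (eGFP) fused to its C-terminus as a stable transgene. There were 3 biological replicates of this 1 genotype and stage, so no condition was compared with another. The labels give the prepupae an age of 24 days, and the stage was taken as given; the promoter that drives the fusion is not given in the sources used here. No untagged animals were analysed here. In whole animals, binding in few cells and weak binding in many cells cannot be told apart.

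Ecdysone is the steroid hormone of insect moulting and metamorphosis. Its receptor, a pair of nuclear receptors, switches on a set of early regulators, and these in turn time the stage-specific late genes that reshape the larva into the pupa. The prepupal period lies between successive pulses of the hormone, so genes that clear it, delay the next step or carry out tissue remodelling are all part of the program. Among the 9 genes, Blimp-1, Kr-h1, vri and crol encode transcription factors. Cyp18a1 encodes the cytochrome P450 that inactivates the hormone. ImpE1, ImpE2, ImpE3 and ImpL2 were first isolated as ecdysone-inducible genes of imaginal discs, the larval precursors of adult appendages. The peak lists measure neither transcription nor a hormone response.

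Across these loci, the tallest peaks of the tagged protein were not at the start sites of the 9 genes. A peak is placed here by its summit, the base of highest signal, and its height is the signal the authors gave it, which has no unit and is comparable only within a list. The authors' list thresholded by the irreproducible discovery rate (IDR) held 8091 peaks with a median signal of 285, and these were the 8091 strongest of the pooled replicates. Within the bodies of the 9 genes and 10 kb on either side, the loci, lay 36 of these summits, and every gene had at least 1. ImpL2 and vri held all 7 of the summits that ranked among the 1000 strongest of the genome, which is 19.4% of the 36 against 12.4% of the whole list. The highest, in an intron of ImpL2, had a signal of 2590 and rank 115.

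The sequences around 7 summits are shown because they are the tallest of 5 loci and, for vri and ImpE3, those at the gene's own start. Each is the reference genome (Release 6) within 100 bp of the summit, on the strand of the gene. Capitals mark 3 motifs on either strand: CACTG, chosen because an earlier analysis of these peaks had singled it out; GAGAG, the core of GAGA factor sites; and AGGTCA, the half-site of many nuclear receptors, the ecdysone receptor among them.
ImpL2, chr3L:4228284-4228484, minus strand: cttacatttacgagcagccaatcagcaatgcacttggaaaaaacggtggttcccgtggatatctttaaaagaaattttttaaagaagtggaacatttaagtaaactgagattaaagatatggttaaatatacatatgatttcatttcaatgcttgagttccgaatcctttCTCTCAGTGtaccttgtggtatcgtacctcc
vri, chr2L:5287611-5287811, plus strand: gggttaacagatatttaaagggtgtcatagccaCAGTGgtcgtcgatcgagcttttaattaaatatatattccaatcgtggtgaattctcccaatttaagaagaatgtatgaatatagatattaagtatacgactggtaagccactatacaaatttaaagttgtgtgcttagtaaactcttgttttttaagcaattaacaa
vri, chr2L:5288375-5288575, plus strand: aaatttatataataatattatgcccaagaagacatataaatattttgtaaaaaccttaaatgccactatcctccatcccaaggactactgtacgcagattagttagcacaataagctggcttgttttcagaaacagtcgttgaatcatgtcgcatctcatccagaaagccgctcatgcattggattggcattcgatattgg
crol, chr2L:11806782-11806982, minus strand: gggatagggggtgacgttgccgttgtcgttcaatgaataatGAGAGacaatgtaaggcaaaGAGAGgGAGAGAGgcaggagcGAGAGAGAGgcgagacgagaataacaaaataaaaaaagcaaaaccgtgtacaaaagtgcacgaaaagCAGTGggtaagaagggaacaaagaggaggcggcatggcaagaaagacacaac
ImpE1, chr3L:8385176-8385376, plus strand: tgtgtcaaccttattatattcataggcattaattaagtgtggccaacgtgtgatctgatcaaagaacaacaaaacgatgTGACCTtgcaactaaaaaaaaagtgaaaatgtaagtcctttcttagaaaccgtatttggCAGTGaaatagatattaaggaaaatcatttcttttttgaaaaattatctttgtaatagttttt
ImpE2, chr3L:3517892-3518092, minus strand: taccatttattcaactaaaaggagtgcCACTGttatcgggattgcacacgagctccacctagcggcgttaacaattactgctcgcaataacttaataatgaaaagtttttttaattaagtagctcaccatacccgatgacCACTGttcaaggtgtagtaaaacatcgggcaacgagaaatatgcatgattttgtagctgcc
ImpE3, chr3R:8029680-8029880, minus strand: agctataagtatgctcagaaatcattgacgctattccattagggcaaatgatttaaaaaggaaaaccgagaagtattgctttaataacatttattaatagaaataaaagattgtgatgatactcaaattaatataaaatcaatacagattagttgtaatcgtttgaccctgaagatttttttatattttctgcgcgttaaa

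In these windows the ImpL2 intron had a CTCTC that shares its last base with a CAGTG, while the crol intron had 7 overlapping or neighbouring copies of GAGAG and 1 CAGTG. The ImpE1 intron was the only one of the 7 with AGGTCA, at an offset of -18 bp from the summit. The windows at the starts of vri and ImpE3 held none of the 3 motifs. Of the windows at starts not shown, that of crol and that at the third TSS of vri held none either, and that of ImpL2 held 2 overlapping copies of GAGAG.

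**Figure D1:**
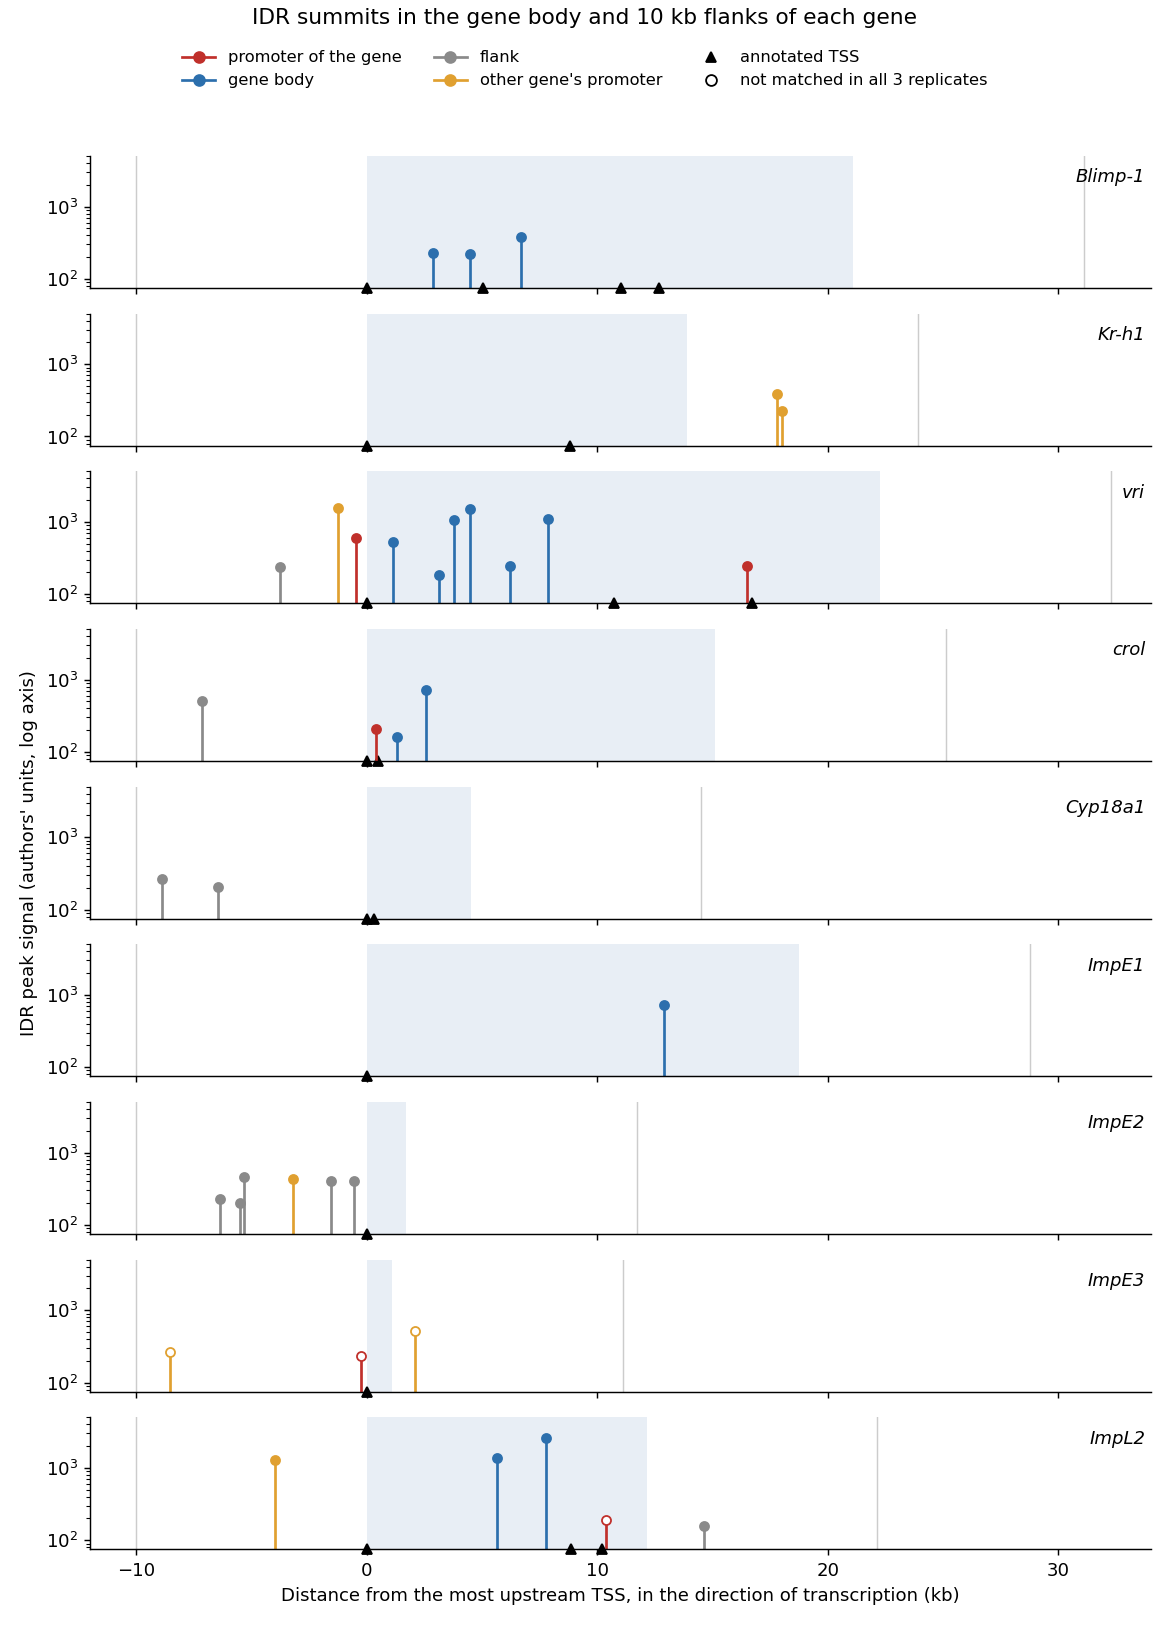
IDR summits in the locus of each gene, with distance from the most upstream transcription start site (TSS) on the x axis in kb and the authors' peak signal on a log y axis; the shaded span is the gene body, grey lines mark the 10 kb flanks and triangles the annotated TSSs. The tallest stems stand in the vri and ImpL2 panels, with 10 and 5 summits, and open circles mark the 4 summits not matched in all 3 replicates.

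At their own start sites, an IDR summit stood no more than 500 bp from a TSS in 4 of the 9 genes (44.4%), namely vri, crol, ImpE3 and ImpL2, compared with 18.1% of all protein-coding genes. Genes with several start sites have more sequence in which a summit counts. Of the 6 genes over 10 kb in length, 3 had such a summit, against 38.2% of all protein-coding genes of that length. Of all genes with 1 TSS 11.8% had one, and the shares were 28.2%, 45.0% and 59.6% for genes with 2, 3 and 4 TSSs. Among the 9 genes these were 1 of 3 genes with 1 TSS, 1 of 3 with 2, both with 3 (vri and ImpL2) and not Blimp-1 with 4. The 9 genes had 19 start sites in all, and 6 of them (31.6%) lay within 500 bp of an IDR summit, against 17.7% of the start sites of all protein-coding genes.

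The replicates differed on these start sites. Among the 8091 strongest regions of each replicate, 4 of the genes had a summit at a start in replicate 1, against 20.7% of all genes. Replicate 2 had vri and crol, 2 genes, against 17.7%, and replicate 3 had vri and ImpL2, also 2, against 16.5%. The mean was 2.67 ± 1.15 genes (SD, n = 3). vri was the only one of the 9 in all 3 replicates by this measure. When IDR summits were kept only if both remaining lists had them among these strongest regions, 1 gene was left when replicate 1 was dropped, and 2 genes when either replicate 2 or replicate 3 was. With replicates 1, 2 and 3 dropped in turn, the shares of all protein-coding genes were 12.1%, 12.9% and 13.5%.

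**Figure D2:**
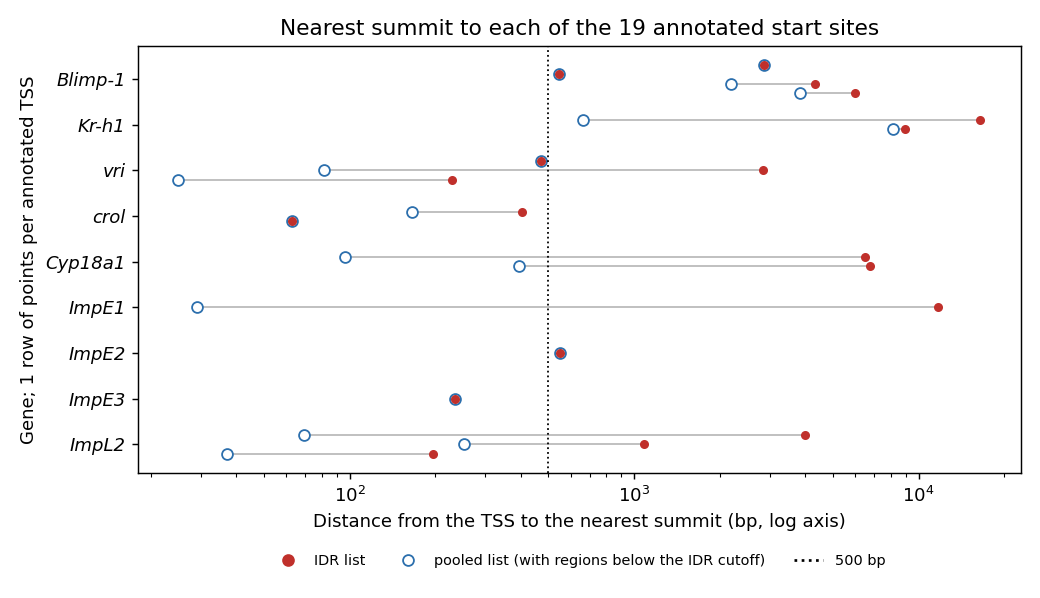
Distance on a log axis from each of the 19 annotated start sites, grouped by gene, to the nearest summit of the IDR list (filled) and of the pooled list that also holds weaker regions (open). IDR summits fall within 500 bp of 6 start sites, those of vri, crol, ImpE3 and ImpL2, and pooled summits within 500 bp of 12. The pooled list holds 30000 regions, and the share of all start sites near them was not computed.

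vri encodes a basic leucine zipper transcription factor, best known as a repressor in the circadian clock. It lies on 2L from 5288944 to 5311223 (plus strand, FBgn0016076) and has 3 start sites. With 10 IDR summits its locus had more than 98.5% of protein-coding genes, and the 7 inside the gene were more than in 98.7%. Both shares are over genes of any length, although longer genes have more sequence in which a summit counts. The median over all protein-coding genes was 1 summit per locus. The tallest, signal 1550 and rank 290, lay 1233 bp upstream of the first TSS and 137 bp from the start of a noncoding RNA gene, lncRNA:CR44742. Replicates 1, 2 and 3 gave it signals of 935, 343 and 287 and ranks of 230, 365 and 508. It ranked highest in replicate 1 and lowest in replicate 3.

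The introns of vri held a run of peaks. At 4481 bp downstream of the first TSS the signal was 1514, at 3788 bp it was 1048, and at 1128 bp it was 534. Between the last and the others, 3120 bp downstream, was a low peak of 185. A further tall peak, with a signal of 1083 (chr2L:5296610-5296999), lay 2841 bp before the second TSS. Ranks of the 1514 peak (chr2L:5293166-5293602) were 258, 336 and 429 in replicates 1, 2 and 3, and those of the 1083 peak 667, 590 and 642. Every vri peak with a signal over 1000 in the IDR list ranked 796 or better in each replicate.

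At its starts vri had lower peaks. The summit 469 bp upstream of the first TSS, just inside the 500 bp limit, had a signal of 596 and rank 1637. Its replicate values were 292, 159 and 159. This summit lay inside a noncoding RNA gene, lncRNA:CR44743, and closer to the start of that gene, at 192 bp. The peak lists cannot assign it to either gene. The summit 229 bp upstream of the third TSS had 245, with 120, 40.5 and 53.4 in the replicates. No IDR summit lay near the second TSS, where the nearest pooled region, 81 bp upstream with a signal of 98.1, was matched in replicate 1 only. Weak summits of the other replicates lay 304 bp upstream of that TSS in replicate 2 (18.3) and 37 bp downstream in replicate 3 (29.0). Of all protein-coding genes with a promoter summit, 72.4% had a lower top promoter signal than vri, while crol, ImpE3 and ImpL2 stood at 21.1%, 29.5% and 16.6%.

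crol (crooked legs, 2L, 11794327 to 11809438, minus strand, FBgn0020309) encodes a zinc finger protein needed for leg development at metamorphosis. Its tallest peak was intronic, 2090 bp downstream of the second TSS, with a signal of 709 and rank 1297. In the replicates that peak had signals of 350, 189 and 171 and ranks of 1439, 1120 and 1255. The 2 start sites, 466 bp apart, share 1 summit of signal 206, which lies 63 bp upstream of the second. There the replicate signals were 146, 43.2 and 30.9, and the ranks 4489, 6922 and 11153, so only replicates 1 and 2 had it among their 8091 strongest regions. A summit of 159 lay in a 5' UTR of crol. Another, of 504, lay 7135 bp upstream in a coding exon of Pde1c, a phosphodiesterase gene.

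Blimp-1 (3L, 5630983 to 5652094, plus strand, FBgn0035625) encodes a zinc finger repressor that is induced by ecdysone and times the onset of the prepupal nuclear receptor Ftz-F1. None of its 4 start sites had a summit within 500 bp, and the nearest lay 543 bp upstream of the second, just outside that limit. The 3 IDR summits were all in introns, with signals of 379, 227 and 221. The peak of 379 had 193, 79.0 and 102 in the replicates and ranked 3177, 3427 and 2509. The peak 543 bp from the TSS was uneven, at 146, 46.0 and 24.7, with ranks from 4472 in replicate 1 to 14855 in replicate 3.

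Kr-h1 (2L, 6082603 to 6096498, plus strand, FBgn0266450) encodes a zinc finger factor that mediates juvenile hormone action and also responds to ecdysone. No IDR summit lay in the gene or within 500 bp of its 2 start sites. Both summits of the locus, with signals of 392 and 223, were at the start of the neighbour stai, the stathmin gene, 31 and 237 bp from its TSS and 206 bp apart. The nearest pooled region to the first TSS of Kr-h1 was 664 bp downstream with a signal of 41.0. None of 8 regions below the IDR cutoff in the locus was matched in all 3 replicates.

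Cyp18a1 (X, 18688538 to 18693042, minus strand, FBgn0010383) likewise had no IDR summit in the gene or at its 2 start sites. Its 2 summits lay 6463 and 8909 bp upstream, with signals of 207 and 262. The second had 146, 42.1 and 62.6 in the replicates. A weaker pooled region, signal 87.0, lay 96 bp upstream of the first TSS. It was matched in replicate 1 (48.6) and replicate 2 (22.7), with ranks of 14722 and 14626, but not in replicate 3.

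ImpE1 (3L, 8372405 to 8391171, plus strand, FBgn0001253) encodes a membrane protein with repeats like those of the low-density lipoprotein receptor and is expressed in everting discs. It had 1 IDR summit, in an intron 12871 bp downstream of its TSS, with a signal of 735 and rank 1237. The replicate signals were 365, 193 and 162 and the ranks 1355, 1078 and 1368, so the peak stood at a like rank in each. At the TSS itself the pooled list had weaker regions at offsets of 29 and -265 bp, with signals of 75.7 and 82.8, each matched within 100 bp in replicate 3 alone. The nearest summit of replicate 1 lay 164 bp upstream of the TSS, with a signal of 55.8.

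ImpE2 (3L, 3510974 to 3512681, minus strand, FBgn0001254) encodes a secreted disc protein. Its locus held 6 summits, more than in 92.1% of protein-coding genes, and all lay upstream of the gene. The nearest, of signal 408, was 549 bp from the TSS, just past the limit, with 256, 75.4 and 82.8 in the replicates. The other 5, with signals from 203 to 467, were closer to a start site of Eip63E, which encodes an ecdysone-induced cyclin-dependent kinase and is transcribed away from ImpE2. One of them, of 430, lay 143 bp from that start. These 5 cannot be assigned to either gene from the peak lists.

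ImpE3 (3R, 8028453 to 8029546, minus strand, FBgn0001255) lies in an intron of CG2747 and is the least certain of the 4 genes with a promoter summit. The summit 234 bp upstream of its TSS had a signal of 234 in the IDR list and 95.0 in replicate 1. No summit lay within 100 bp in the other two replicates, where the nearest were 2459 and 3474 bp away. The peak of 511 downstream, 284 bp from a start of CG2747, was also matched in replicate 1 alone, at 301, and the nearest summit in replicate 2 was 137 bp away, at 106. The remaining summit, at the start of lncRNA:CR44936, had 140 and 67.8 in replicates 1 and 2 and no match in replicate 3.

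ImpL2 (3L, 4224006 to 4236147, minus strand, FBgn0001257) encodes a secreted immunoglobulin-domain protein that binds insulin-like peptides. The intronic peak of 2590, 1082 bp upstream of the second TSS, had signals of 1396, 615 and 586 and ranks of 116, 115 and 121. It therefore kept nearly the same rank in all 3 replicates. A second intronic peak (chr3L:4230293-4230723), 3198 bp upstream of that TSS, had 1392 in the IDR list and 683, 334 and 368 in the replicates, with ranks from 290 to 460. The other tall peak, of 1303, stood 36 bp from the start of Sqor, the sulfide quinone oxidoreductase gene, near that of a noncoding antisense RNA (asRNA:CR45738), and 3990 bp upstream of ImpL2. At its own start sites ImpL2 had 1 low summit, of 192, lying 196 bp downstream of the third TSS. It was matched at 105 in replicate 1 and 69.6 in replicate 3, but replicate 2 had no summit closer to it than 270 bp. That replicate 2 summit lay 74 bp upstream of the third TSS, with a signal of 23.8 and rank 13827.

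Tall peaks in the gene body were found in few genes. Of all protein-coding genes, 3.75% (523 genes) held at least 1 of the 1000 strongest peaks in the gene body. At least 2 were held by 0.746% (104 genes, ImpL2 among them), and at least 3 by 0.258% (36 genes, vri among them). The other 7 of the 9 genes had none. These shares are over genes of any length, and longer genes have more sequence in which a summit counts. A gene body summit of any height was found in 5 of the 9 genes, Blimp-1, vri, crol, ImpE1 and ImpL2 (55.6%), against 15.5% of all protein-coding genes. All 5 were over 10 kb long, out of 6 such genes, and 56% of all protein-coding genes of that length had one. A summit in the locus, which every one of the 9 genes had, was found in 63.5% of all protein-coding genes.

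By place, 17 of the 36 summits were in introns (47.2%), against 43.7% of all IDR summits, and 5 were intergenic (13.9% against 17.5%). Promoters of any gene, noncoding ones included, held 12 (33.3% against 35.3%). Only 5 of those 12 were promoters of the 9 genes and 7 belonged to other genes alone. The median signal of the 36 was 385. Of the 36 regions, 20 had the width of 470 bp that was the most frequent in the list, as did 57.6% of all. Their median signal was 232, and that of the other 16 was 722.

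The replicates matched on most of these summits. A summit within 100 bp in all 3 full lists of 30000 regions was found for 32 of 36 (88.9%), against 82.4% of all IDR summits. All 36 were matched in replicate 1, and 33 each in replicates 2 and 3. Of all IDR summits, 96.8%, 91.6% and 90.8% were matched in replicates 1, 2 and 3. With each list held to its 8091 strongest regions, 23 of 36 were matched in all 3 (63.9%), against 59.8% of the whole. The 4 without a full match were the 3 of the ImpE3 locus and the ImpL2 promoter summit. Without those 4 the count of genes with a promoter summit was 2, vri and crol, and 14.6% of all protein-coding genes had one among summits matched in all 3 lists.

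**Figure D3:**
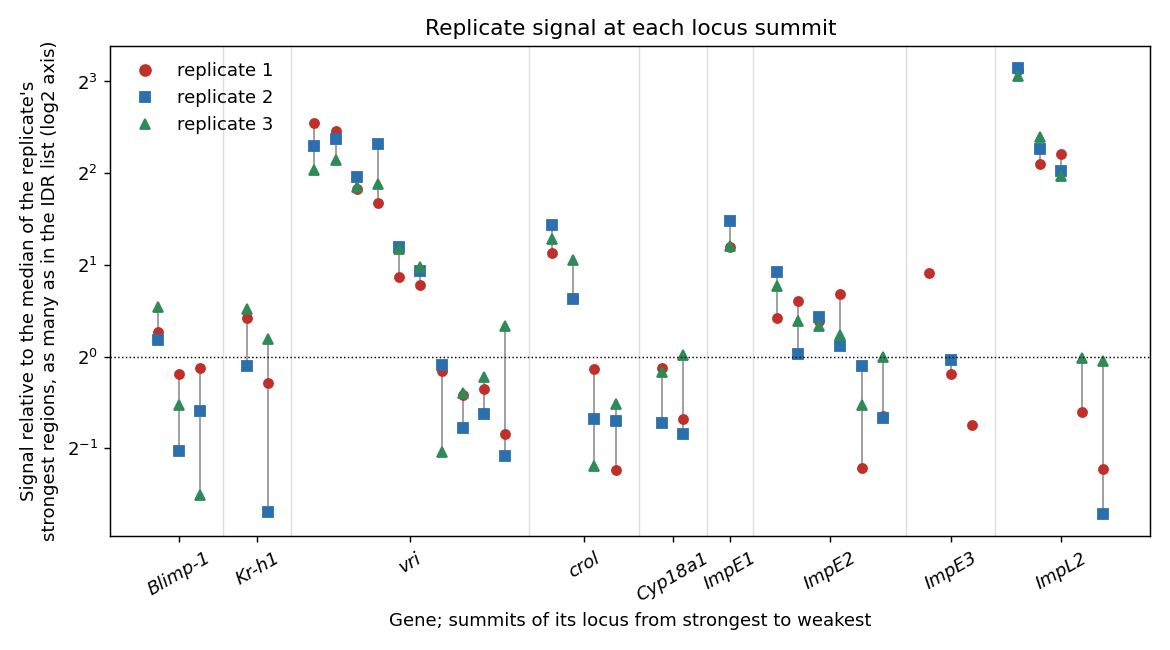
Signal of each locus summit in the 3 replicates, relative to the median of that replicate's 8091 strongest regions, on a log2 axis; summits run from strongest to weakest within a gene and grey lines span the replicates. The tallest summits of ImpL2 and vri averaged 3.11 and 2.29 on the log2 scale, and that of Cyp18a1 averaged -0.34.

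To set the genes in order, replicate signals were divided by the median of the 8091 strongest regions of that replicate (160 in replicate 1, 69.5 in replicate 2 and 70.3 in replicate 3), and log2 values were averaged. By the tallest summit of the locus, ImpL2 led with 3.11 ± 0.0446 (SD, n = 3), followed by vri with 2.29 ± 0.261. ImpE1 with 1.29 ± 0.161 and crol with 1.29 ± 0.153 did not differ beyond their spread. Next came ImpE2 with 0.70 ± 0.255, Blimp-1 with 0.33 ± 0.184, Kr-h1 with 0.28 ± 0.335 and Cyp18a1 with -0.34 ± 0.335. This is an order of loci, and a tallest summit need not belong to the gene named. The Kr-h1 value is that of the summit at the stai start. The ImpE2 value is that of a summit closer to a start of Eip63E. The ImpE1 summit, although in an intron of ImpE1, lay 6264 bp from a start of Jon66Ci and 12871 bp from that of ImpE1. The Cyp18a1 summit lay 7914 bp from a start of Cyp308a1 and 8909 bp from that of Cyp18a1. ImpE3 was left out, since its tallest summit was matched in 1 replicate.

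The ranges over replicates did not overlap for 4 of the 7 neighbouring pairs, ImpL2 over vri, vri over ImpE1, crol over ImpE2 and Kr-h1 over Cyp18a1. They overlapped for ImpE1 and crol, ImpE2 and Blimp-1, and Blimp-1 and Kr-h1. The order was set by the means of these same values, so the direction of each mean difference was fixed by the sorting. ImpL2 exceeded vri by 0.82 ± 0.228 on the log2 scale and was higher in 3 of 3 replicates. With 3 replicates a two-sided exact sign-flip permutation test cannot go below p = 0.25, the value for this pair (0.35 adjusted over the 7 pairs), so no pair could pass a threshold of 0.05. Among promoter summits alone, the vri value was 1.08 ± 0.184 and the crol value -0.67 ± 0.527. The difference was 1.75 ± 0.691, with no overlap and with vri higher in 3 of 3 (exact permutation p = 0.25). The vri summit used here lay closer to the start of lncRNA:CR44743 than to that of vri.

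Below the IDR cutoff, the pooled list held 64 more regions in the loci, none above a signal of 146. Of these, 10 (15.6%) were matched within 100 bp in all 3 replicates, against 17.6% of all regions below the cutoff. Of the regions below the cutoff that lay within 500 bp of a start of the 9 genes, 10 in all, none was matched in all 3. The tallest, of 123, lay 253 bp upstream of the second TSS of ImpL2. Each replicate did have a summit upstream of that TSS, 249, 362 and 187 bp away in replicates 1, 2 and 3.

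The 36 summits were also searched for 6 motifs, with the share over all IDR summits as background. Within 100 bp, CACTG on either strand was present at 15 of 36 (41.7%) against 43.4% of all IDR summits. The longer CACAGTG was at 3 (8.33% against 6.45%), at the tall upstream peak of vri, at the Sqor start and at the Eip63E start. GAGAG was at 8 (22.2% against 27.9%). AGGTCA was at 2 (5.56% against 3.73%), the ImpE1 intron and the Blimp-1 summit 543 bp from its second TSS. Neither the E-box CACGTG nor TATCGATA, the core of the DREF motif, was found at any of the 36, against 1.85% and 1.26% of all. CACAGTG contains CAGTG, so those 2 counts overlap. The median GC content of the windows was 36.1% against 37.3%. The CACTG and CACAGTG comparisons turned with the window: CACTG stood at 27.8% against 20.2% within 50 bp and at 69.4% against 66.7% within 200 bp. CACAGTG stood at 0 of 36 against 2.24% within 50 bp and at 8.33% against 11.6% within 200 bp. GAGAG was near its background, at 13.9% against 14.2% within 50 bp and 50% against 49.6% within 200 bp. AGGTCA stood at 2.78% against 1.92% within 50 bp, on 1 summit, and at 8.33% against 7.02% within 200 bp, on 3. A match shows the letters only, not a site in use.

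Other genes of ecdysone signalling, response and output were counted by the same rule, from a list also written with earlier results known. Of 31 such genes found in the annotation, 14 had a promoter summit (45.2%), against the 18.1% of all genes. This comparison was not matched for gene length or number of start sites. The 3 with the highest promoter signal were Eip93F, a transcription factor of the pupal response, with 1648, hid, a cell death gene, with 1470, and E23, a transporter gene of the ABC family, with 1427. Each exceeded the promoter signals of vri (596), ImpE3 (234), crol (206) and ImpL2 (192). These 3 were picked as the highest of the 14, and the lowest of the 14 had a signal of 180, below all 4. Eip63E is one of the 31, and its start is the one in the ImpE2 locus.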

How the data were processed

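Whole prepupae carrying the CG6808-eGFP fusion were assayed by anti-GFP ChIP-seq in 3 biological replicates, per the labels, although the antibody field names CG6808. Per the file headers of the deposited text descriptions, each replicate list (30000 regions) came from its own alignment against 1 shared control alignment, another from the pooled replicates, and the IDR list (8091) from these 4; all 8091 were also the strongest 8091 regions of the pooled list. The aligner is not given in the sources used here, nor is the caller. The deposited signal (column 7) was taken as the authors' peak height over control, not scaled between lists. The deposited −log10 q-value column was not used to rank. Read depth is unknown. Lists on dm3 were not used.

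The dm6 lists were placed on Ensembl release 115 and the Release 6 genome, of the same assembly. Promoter summits were those at most 500 bp from an annotated TSS, a locus was the gene body with 10 kb on either side, and replicate summits were matched within 100 bp. The 9 genes, the other ecdysone genes (35 symbols, 4 not matched), the motifs and the tests were chosen with earlier results of these data known. All 9 genes are named with their strongest promoter or locus summit, neighbours where a locus summit lay at their start alone, and the 3 other ecdysone genes of highest promoter signal. Pde1c, CG2747 as host gene, the sequences at the tallest summits of vri, crol and ImpL2, and the backgrounds by length and number of TSSs were chosen after values were seen. Sequences for display were taken outside annotated UTRs, while the motif counts used whole windows, UTRs included. P-values measure only the spread between replicates. The promoter, matching and locus counts were tested on simulated summits. These were planted inside the distances sought, so their recovery was fixed by construction and checks the code alone. The tools were scipy 1.17.1, pandas 2.3.3, numpy 2.4.6 and matplotlib 3.10.9 under Python 3.11.15.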

Additional observations from a re-analysis of the deposited data

How the results depend on the processing

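Of 42 alternatives to the counts, 26 stayed within 1.5 times the main value. Some of these could not have moved. Matches in every list cannot fall when 1 list is dropped, and ranges that stand apart stay apart without 1 replicate. CACGTG and TATCGATA, absent within 100 bp, could not appear within 50 bp. The number of genes with a promoter summit (4) was 4 with a window of 250 bp, 6 with 1000 bp and 6 in the pooled list. It was 2 in the equal-length list of replicate 2, 2 in that of replicate 3, 1 in the stronger part of the IDR list, and 1 to 2 without 1 replicate (IDR peaks kept if among the strongest regions of both others). It was 2 among summits matched in all 3 full lists, a setting added once values were known. For the other windows, the pooled list and the stronger part of the IDR list, the share of all protein-coding genes was not computed. The counts at those settings therefore have no background to be read against. The number of locus summits (36) was 17 in gene bodies only, 19 in the stronger part of the list, 7 among the 1000 strongest (added likewise) and 25 to 27 without 1 replicate. Those matched in every replicate (32) were 28 within 50 bp, 23 in lists at the IDR length and 32 to 33 without 1 replicate. Neighbouring pairs that did not overlap were 1 of 1 by promoter summits, also without 1 replicate (added likewise), and 4 of 7 by the tallest locus summit. CACTG (15) was found at 10 summits within 50 bp and 25 within 200 bp, GAGAG (8) at 5 and 18, CACAGTG (3) at 0 and 3, and AGGTCA (2) at 1 and 3. The cause was not tested; the smaller sets hold fewer peaks and wider windows more sequence. Depth is unknown, so its bearing on weak peaks was not tested. There is 1 group, with no second group to pair with. The order of genes was tested on differences between genes within each replicate, so it was paired by replicate.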
